A study of Mus musculus with 6 samples.

Results

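All 10 genes of class I antigen processing and the immunoproteasome examined here had lower messenger RNA levels in γδ T cells labelled KO for Usf3 than in cells labelled WT. The falls were modest, from 8.36% for B2m to 23.3% for Nlrc5. The genes were picked by symbol, as the interferon-induced catalytic subunits of the proteasome (Psmb8, Psmb9, Psmb10), the proteasome activator PA28 (Psme1, Psme2), the peptide transporter and its docking factor (Tap1, Tap2, Tapbp), the light chain of class I molecules (B2m) and the class I transactivator (Nlrc5). The choice was made with earlier results of these data known. All 10 had a row among the 19390 gene symbols counted and were among the 12810 genes with enough counts to be tested. RNA sequencing was done on γδ T cells, T lymphocytes whose receptor pairs a γ with a δ chain, which were isolated from mouse spleens by flow cytometry at 6 weeks of age. The 3 WT libraries were taken to be USF3-f/f, that is with floxed Usf3 alleles, and the 3 KO libraries USF3-f/f with CD2-cre, which drives Cre recombinase from regulatory sequence of the lymphoid gene Cd2. Both labels thus carry the floxed alleles, and the comparison holds the transgene and the deletion together. The labels do not say whether the libraries came from separate or pooled mice, so p-values measure the spread between these libraries, which may be technical.

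Nucleated cells cut cytosolic proteins into peptides with the proteasome, pump the peptides into the endoplasmic reticulum through the TAP1-TAP2 transporter, and load them there on class I heavy chains paired with β2-microglobulin. Interferon-γ, in part through the transcription factor IRF1, induces the catalytic subunits PSMB8, PSMB9 and PSMB10, which take the places of PSMB5, PSMB6 and PSMB7 in newly built 20S cores, and the PA28 ring that opens the core. NLRC5, a member of the NOD-like receptor family that is itself induced by interferon, switches on the promoters of class I heavy chains, B2m, Tap1 and Psmb9. In lymphocytes the pathway is active without infection, and class I molecules on T cells also serve as ligands for inhibitory NK receptors.

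The promoters are shown because several of these genes are classical interferon targets, and because Usf3 belongs to a family whose related members bind the E-box CACGTG. Sequences are RefSeq windows of the build GRCm38.p6, from 250 bases before to 50 after the start site, and 8 of the 10 genes had one (not Tap2 and Nlrc5). Tap1 and Psmb9 are read in opposite directions with 225 bases between their start sites, so that a single stretch lies upstream of both; it is printed on the Tap1 strand (chr17:34187331-34187555), in lower case because it holds none of GAAANNGAAA, TTCNNNGAA or CACGTG. For B2m (chr2:122147437-122147685, plus strand) capitals mark GAAANNGAAA, the core of the interferon-stimulated response element (ISRE). For Psmb8, a stretch of 30 bases (chr17:34198088-34198117, plus strand) has in capitals TTCNNNGAA, the palindrome of the interferon-γ activated site (GAS). For Psmb10 (chr8:105938445-105938642, minus strand) capitals mark CACGTG.
Psmb9-Tap1: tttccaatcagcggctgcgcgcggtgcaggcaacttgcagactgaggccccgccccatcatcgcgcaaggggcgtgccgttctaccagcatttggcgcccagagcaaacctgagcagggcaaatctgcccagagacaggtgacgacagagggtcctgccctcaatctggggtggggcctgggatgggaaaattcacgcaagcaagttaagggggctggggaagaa
B2m: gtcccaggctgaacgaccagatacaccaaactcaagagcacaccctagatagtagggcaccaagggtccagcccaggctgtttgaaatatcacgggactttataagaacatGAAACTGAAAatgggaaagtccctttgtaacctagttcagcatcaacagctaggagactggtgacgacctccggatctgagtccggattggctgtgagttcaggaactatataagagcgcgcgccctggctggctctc
Psmb8: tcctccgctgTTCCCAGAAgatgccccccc
Psmb10: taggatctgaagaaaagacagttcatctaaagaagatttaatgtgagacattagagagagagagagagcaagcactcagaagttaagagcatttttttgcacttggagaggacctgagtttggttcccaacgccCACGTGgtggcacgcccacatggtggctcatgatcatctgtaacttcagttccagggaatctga

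Each motif was searched on both strands of the 300-base windows. GAAANNGAAA was found in 2 of the 8 genes with a window, B2m, 139 bases before the start site, and Psme1, where it lies within the first bases of the transcript, and in 3.44% of all 32851 windows. TTCNNNGAA was found in 1 gene, Psmb8, 97 bases before the start site, and in 8.3% of all windows. CACGTG was found in 1 gene, Psmb10, 116 bases before the start site, and in 7.15% of all windows. The looser κB pattern GGGNNNNNCC was found in 5 of the 8 genes (Psmb9, Psme1, Psme2, Tap1 and B2m). It was also found in 50.8% of all windows and, counted by gene, in 7091 of the 10079 tested genes with a window. A match or its lack describes these letters in these windows only. Over all 10079 tested genes with a window, 9.97% were lower in KO by the test used below and 7.39% higher. Among the 379 with GAAANNGAAA these shares were 23.5% and 4.75%, among the 835 with TTCNNNGAA 14.1% and 7.54%, and among the 1145 with CACGTG 8.73% and 8.12%. For the 7091 with GGGNNNNNCC they were 10.2% and 7.73%.

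Libraries held between 34644862 and 35806402 counts, and the genes described here between 5098 and 68060 counts each per library. Usf3 itself stood at 72.2 ± 1.81 CPM (counts scaled to library size) in WT libraries and at 68.5 ± 3.18 CPM in KO libraries (SD, n = 3 each), and did not pass the test (edgeR adjusted p = 0.261). Which exons were floxed is not stated, so a sum over all of its exons is no check of the labels, and below WT and KO stand for what the labels say. T cell genes were abundant, for example Cd3e at 346 CPM in WT, while the constant-region genes of the γδ receptor were not analysed here. Of 37 marker genes of B cells, monocytes, dendritic cells, neutrophils, NK cells, αβ T cells, erythroid cells and platelets, 30 were under 1 CPM in every library and 10 could be tested. Of these 10, 3 were lower (Batf3, Ncr1 and Foxp3, named with their values known) and 0 higher. Over all tested genes 10.1% were lower and 7.23% higher. The NK receptor gene Ncr1 lost its call without WT replicate 1 (edgeR adjusted p = 0.222), WT replicate 2 (0.106) or KO replicate 1 (0.176) and with the replicate number as a block (0.0788), and Xcr1, a dendritic cell gene (0.283 CPM in WT and 0.769 in KO; log2 fold change 1.43), passed as higher without KO replicate 2 (0.0216) and with the block (0.0449). The summed level of the 37 markers was 121 to 127 CPM in WT and 114 to 120 in KO. The 10 class I and immunoproteasome genes summed to 5020 to 5038 CPM in WT and 4415 to 4511 in KO. NK cell markers summed to 73.2 to 79.1 CPM in WT and 74.3 to 78.8 in KO. Sums were lower in KO for αβ T cell markers (29.9 to 31.7 against 26.2 to 27.1) and dendritic cell markers (8.53 to 9.25 against 5.81 to 6.04). They were higher for erythroid and platelet markers (0.197 to 0.256 against 0.363 to 0.892), and those of the other lists overlapped. The part of these cells in the result was not tested. In bulk libraries, fewer cells of a type and less RNA per cell cannot be told apart.

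Per unit of length, the genes spanned a wide range of levels. In deposited FPKM (counts over library size and gene length), B2m was highest in WT at 2206 ± 18.3, followed by Psmb8 at 463 ± 7.20, Psme1 at 316 ± 7.20 and Psme2 at 231 ± 3.35 (SD, n = 3 each). Tapbp stood at 187 ± 1.53 and Tap1 at 159 ± 4.63. Psmb9, Psmb10 and Tap2 lay close together, at 137 ± 5.18, 131 ± 2.47 and 129 ± 1.08, and the ranges of Psmb10 over the WT libraries overlapped those of both others. Nlrc5 was the lowest at 47.0 ± 0.576. The order of the gene means was the same in KO, where B2m stood at 2036 ± 8.36 and Nlrc5 at 36.3 ± 0.320.

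**Figure D1:**
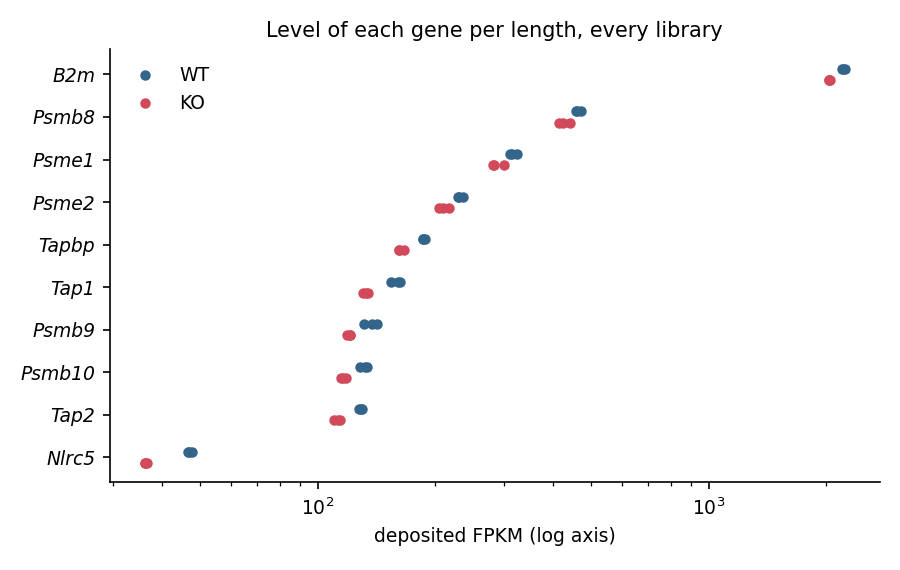
Deposited FPKM (log axis) of the 10 genes, with a point for each of the 3 WT (blue) and 3 KO (red) libraries. In WT, B2m has a mean of 2206 and Nlrc5, the lowest, of 47.0, and in every gene the KO points lie to the left of the WT points.

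The 3 catalytic subunits induced by interferon were lower in KO. Psmb8 encodes the chymotrypsin-like subunit also called LMP7, and had 577, 567 and 563 CPM in the WT libraries, in the order of their replicate numbers, against 517, 508 and 538 CPM in the KO libraries. All KO libraries lay below all WT libraries, with KO replicate 3 nearest to them, and the log2 fold change was -0.13 ± 0.025 (SE; edgeR quasi-likelihood test, Benjamini-Hochberg adjusted p = 0.000632 over all tested genes). Psmb9 (LMP2), the subunit in the place of PSMB6, had 168, 182 and 178 CPM in WT and 154, 152 and 154 in KO. Its WT libraries were spread wider than its KO libraries, without overlap, and it fell by 12.7% (log2 fold change -0.20 ± 0.032; edgeR adjusted p = 0.000106). Psmb10 (MECL-1), which provides the trypsin-like site, had 168, 164 and 170 CPM in WT and 149, 146 and 147 in KO. It fell by 12.1% (log2 fold change -0.19 ± 0.030; edgeR adjusted p = 9.38e-05), again with no overlap between the labels.

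PA28, the ring of α and β subunits that caps the 20S core and eases the release of peptides, was lower in both subunits. Psme1 (PA28α) had 317, 304 and 308 CPM in WT and 272, 276 and 291 in KO, and fell by 9.68% (log2 fold change -0.15 ± 0.029; edgeR adjusted p = 0.000649). Psme2 (PA28β) had 224, 225 and 231 CPM in WT and 203, 199 and 210 in KO, and fell by 9.88% (log2 fold change -0.15 ± 0.029; edgeR adjusted p = 0.000592). In both genes the KO libraries lay below the WT libraries, and KO replicate 3 came closest to them. The Psme2 count is less certain than the others because the mouse genome holds a near-identical copy, Psme2b, whose own row had counts of 3031, 3118 and 3071 (WT) against 2598, 2620 and 2720 (KO). Psme2b, looked up after the other values were seen, also changed by -0.22 (edgeR adjusted p = 0.000362), and with both rows summed the log2 fold change was -0.17. The third PA28-family gene, Psme3 (PA28γ), which forms a nuclear ring of its own and is not counted as an interferon target, did not pass, with 300.3 ± 0.858 CPM for WT against 314 ± 9.35 for KO (log2 fold change 0.064; edgeR adjusted p = 0.109).

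**Figure D2:**
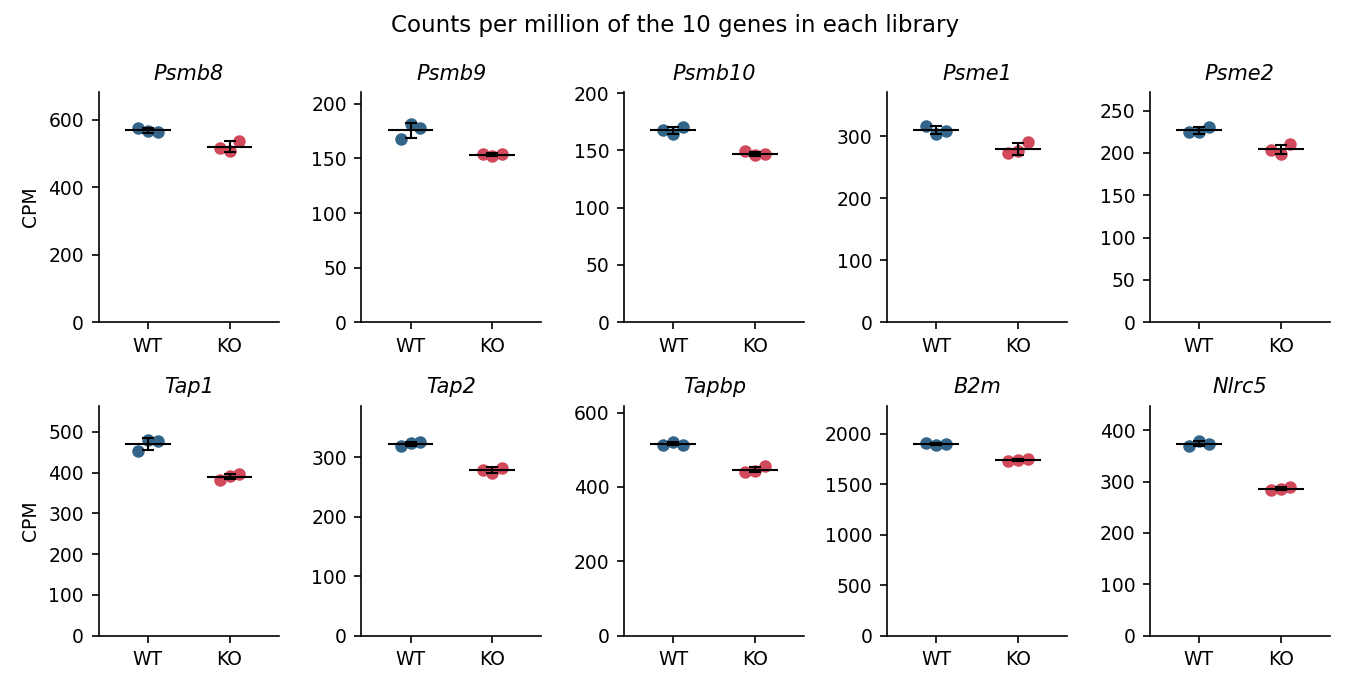
CPM of each of the 10 genes, with a point per library, the mean as a line and the SD as a bar, for 3 WT (blue) and 3 KO (red) libraries, each axis from 0. In every panel the 3 KO points lie below the 3 WT points, by the widest relative gap in Nlrc5, where WT libraries had 369 to 379 CPM and KO libraries 284 to 289.

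Both genes of the peptide transporter and that of its docking factor fell, Tap1 by the most. Tap1 had 454, 481 and 477 CPM in WT and 383, 391 and 396 in KO. The labels were 58.2 CPM apart at their closest, and Tap1 fell by 17.2% (log2 fold change -0.27 ± 0.026; edgeR adjusted p = 4.08e-08). Tap2, the partner of Tap1 in the transporter, had 318, 323 and 325 CPM in WT and 279, 273 and 282 in KO, and fell by 13.7% (log2 fold change -0.21 ± 0.026; edgeR adjusted p = 1.45e-06). Tapbp encodes tapasin, which holds empty class I molecules at the transporter. It had 513, 521 and 514 CPM in WT and 441, 443 and 456 in KO, a fall by 13.4% with no overlap between the labels (log2 fold change -0.21 ± 0.023; edgeR adjusted p = 4.92e-07). The log2 ratio of Tap1 to Tap2 counts differed between KO and WT by -0.059 ± 0.025 (SE), with overlapping labels (two-sided exact permutation test, p = 0.2). In the GENCODE M21 annotation (GRCm38) Psmb9 and Tap1 overlap each other on opposite strands, unlike the RefSeq start sites above, which have 225 bases between them. Tapbp overlaps Zbtb22 and the antisense gene Gm19412 in GENCODE, whose rows held 5.88% and 2.02% of the Tapbp count in WT and 6.9% and 2.05% in KO. Emc9 overlaps Psme1, and its row held 0.863% of the Psme1 count in WT and 0.832% in KO. In the same annotation, genes on the opposite strand without a row in the counts overlap Psmb8 (Gm20496), Tap2 (Gm20496 and Gm15821) and Psmb10 (Gm16156). The Tap1 row held 268% of the Psmb9 count in WT and 254% in KO. These shares are of whole rows, and reads in the overlaps were not counted apart. The Psmb9 value, from the smaller row, may be the less certain of that pair. The sources used here do not say whether counting used strand, and without it reads in the overlaps cannot be told apart.

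B2m, the light chain needed for class I molecules to reach the surface, was the most abundant of the genes and varied least between libraries. It had 1913, 1893 and 1895 CPM in WT and 1731, 1745 and 1748 in KO, with coefficients of variation of 0.563% and 0.526%. The labels were 145 CPM apart at their closest, and the fall by 8.36% was the smallest of the 10 (log2 fold change -0.13 ± 0.018; edgeR adjusted p = 1.74e-05).

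Nlrc5, the transactivator, showed the largest fall. It had 369, 379 and 373 CPM in WT and 284, 286 and 289 in KO, and fell by 23.3% (log2 fold change -0.38 ± 0.025; edgeR adjusted p = 5.89e-11). Its 95% interval, from -0.434 to -0.331, lay below those of the other 9 genes, the nearest being that of Tap1, from -0.326 to -0.218. Nlrc5 was also the sole gene of the 10 that passed a test against a change of at least 1.2-fold (edgeR glmTreat, adjusted p = 0.000383), a test that 2.34% of all genes passed on the lower side. The antisense gene 9330175E14Rik overlaps Nlrc5 in the same annotation. Its row held 2.54% of the Nlrc5 count in WT and 2.01% in KO, and it fell too (log2 fold change -0.72; edgeR adjusted p = 0.000774).

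**Figure D3:**
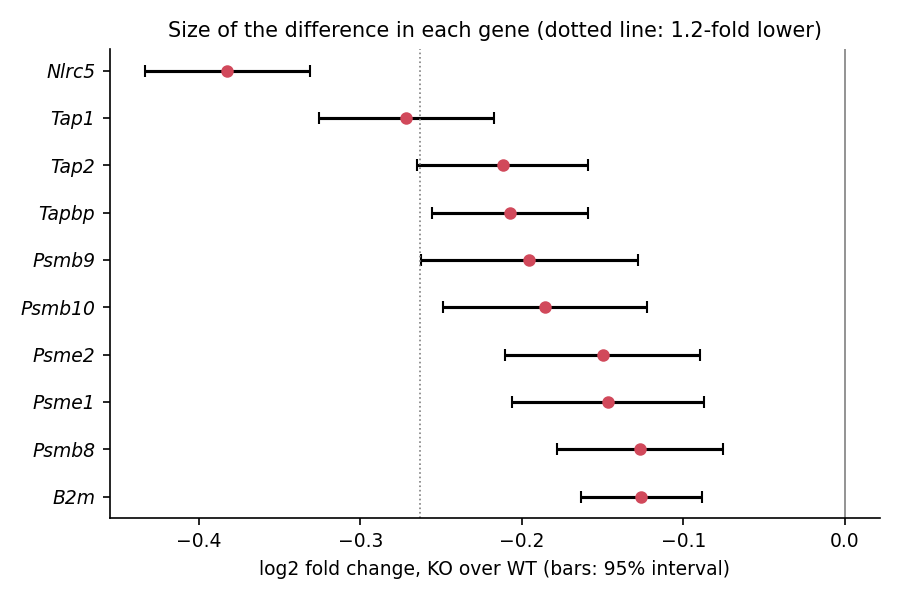
Log2 fold change of KO over WT for the 10 genes (points) with 95% intervals of the edgeR fit (bars), a solid line at 0 and a dotted line at a 1.2-fold fall. All intervals lie below 0, from -0.13 for B2m to -0.38 for Nlrc5, and the Nlrc5 interval alone lies wholly left of the dotted line.

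Altogether 10 of the 10 genes were lower in KO by the edgeR test, where 10.1% of all tested genes were lower and 7.23% higher, and the KO libraries lay wholly below the WT libraries in 10 of 10, as they did in 16.7% of all tested genes. The 10 genes were chosen with earlier results of these data known, so this contrast is not independent of the data. They are also abundant, and small changes pass the test more often at high counts. Among the 1427 genes with a mean of at least 157 CPM, the level of Psmb10, 18.9% were lower and 16.1% higher in KO, and 23% had all KO libraries below all WT libraries. The median log2 fold change was -0.19 over the 10 genes, 0.0014 over all tested genes and 0.014 over those 1427. By size alone, 7.92% of tested genes had a lower log2 fold change than Nlrc5 and 23.2% a lower one than B2m.

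The constitutive catalytic subunits did not fall with their interferon-induced partners. Psmb5, the partner of Psmb8, stood in WT at 131 ± 1.55 CPM, in KO at 142 ± 2.81 CPM (SD, n = 3 each), and rose by 0.13 ± 0.032 on the log2 scale (edgeR adjusted p = 0.00708). Psmb6 and Psmb7 did not pass, at 0.079 and 0.044 (edgeR adjusted p = 0.132 and 0.425), though Psmb6 did without KO replicate 2 (0.0469). Within each library the balance between the partners could be read without scaling libraries to each other. Psmb8 made up 75.2% to 76.0% of the summed FPKM of Psmb8 and Psmb5 in WT libraries and 71.7% to 72.8% in KO libraries. Psmb9 made up 53.4% to 55.0% of the sum with Psmb6 in WT and 48.3% to 49.97% in KO. Psmb10 made up 42.4% to 42.9% of the sum with Psmb7 in WT and 37.5% to 39.6% in KO. The log2 count ratios differed between KO and WT by -0.25 ± 0.030, -0.27 ± 0.041 and -0.23 ± 0.040 (SE) for the 3 pairs in this order, with no overlap between labels. Each gave p = 0.1 in a two-sided exact permutation test, the smallest p that 3 libraries against 3 allow, and an adjusted p of 0.167 over the 5 ratios compared. The log2 ratio of Psme2 to Psme1 differed by -0.0031 ± 0.029, with overlapping labels (two-sided exact permutation test, p = 0.9).

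**Figure D4:**
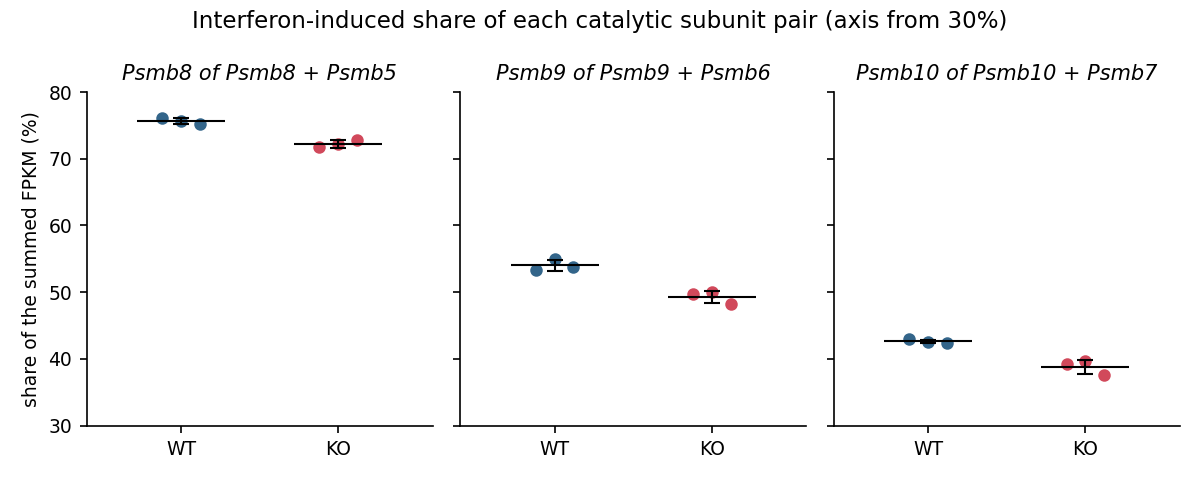
Share (%) of the interferon-induced subunit in the summed FPKM of each catalytic pair, with a point per library, the mean as a line and the SD as a bar; the axis starts at 30%. In each pair the 3 KO libraries lie below the 3 WT libraries, with means of 72.2% against 75.6% for Psmb8, 49.3% against 54.0% for Psmb9 and 38.8% against 42.6% for Psmb10.

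Other proteasome genes are given beside the shares over all tested genes, of which 10.1% were lower and 7.23% higher, and over the 1427 abundant ones, 18.9% and 16.1%. Of the 11 shared subunits of the 20S core, 1 fell, Psma5 at -0.092 (edgeR adjusted p = 0.0397), and 10 did not pass, among them Psma6 at 0.066, a share near the background. Of the 18 tested genes of the 19S particle, which unfolds ubiquitin-tagged proteins, 5 rose and 1 fell. Psmd11, Psmc4 and Psmd3 rose by 0.12, 0.11 and 0.11, as did Psmc1 and Psmc5, chosen after their values were seen, and Psmd8 fell by 0.12 on the log2 scale. Of these 6 calls 4, and that of Psma5, were lost when 1 library or another was left out. The number of 19S genes that rose was 2 to 5 with each library left out and 6 to 7 under other scalings. By edgeR adjusted p, Psmc4 no longer passed without WT replicate 3 (0.0897) or KO replicate 1 (0.0676), and Psmd3 without WT replicate 1 (0.0965) or 2 (0.0587). Psmc1 was lost without any WT library or without KO replicate 3 (0.0615 to 0.133), Psmc5 without WT replicate 1 or 3 or KO replicate 2 or 3 (0.0766 to 0.169), and both with the replicate number as a block (0.0684 and 0.0638). Psma5 was lost without WT replicate 1 or 3 or KO replicate 1 or 2 (0.0635 to 0.206) and under upper-quartile scaling (0.0739), total-count scaling (0.065) and the block (0.0613). Psmb5, Psmd11 and Psmd8 kept their calls in all of these. The median over the 3 constitutive catalytic, 11 shared core and 18 19S genes was 0.039. None of the 9 genes for other activators and for assembly of the core was called by edgeR. Psmg4, an assembly chaperone gene, came nearest at -0.21 (adjusted p = 0.0535) and passed without WT replicate 1 (0.0244) or KO replicate 3 (0.0455). Psme3 passed without KO replicate 2 (0.0329).

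Class I heavy chain genes fell in 8 of the 12 that could be tested and rose in 0. Their median was -0.26 on the log2 scale. The shares over all tested genes were 10.1% lower and 7.23% higher, and over the 1427 abundant ones 18.9% and 16.1%. With each library left out, 7 to 9 class I heavy chain genes fell. H2-Q7, among the 8 and named with its values known, lost its call without WT replicate 2 (edgeR adjusted p = 0.0681) and in DESeq2 (adjusted p = 0.111). The larger values were among non-classical genes. H2-T23 encodes Qa-1, the ligand of the NKG2A receptor, and had 202 ± 0.853 CPM in WT against 150 ± 6.40 CPM in KO (n = 3 each, SD; log2 fold change -0.43; edgeR adjusted p = 7.06e-10). H2-T22, whose product some γδ T cell receptors recognise, went from 195 ± 3.50 to 165 ± 11.97 CPM (-0.25; edgeR adjusted p = 5.84e-05), and H2-Q4 and H2-Q6 changed by -0.12 and -0.46. The classical genes are far more abundant, and their differences were smaller. H2-D1 went from 1894 ± 20.4 to 1804 ± 41.3 CPM (-0.070; edgeR adjusted p = 0.0162), and H2-K1, at 1923 ± 2.85 and 1851 ± 40.9 CPM, did not pass (-0.055; edgeR adjusted p = 0.0539). Either call could turn with a library: H2-D1 did not pass without WT replicate 1 (0.0517), WT replicate 3 (0.112) or KO replicate 2 (0.0886), nor under upper-quartile scaling (0.0661), and H2-K1 passed without KO replicate 3 (0.00116) and in DESeq2 and limma-voom. Class I genes are close copies of each other, so reads may be split between their rows, and these values are less certain than those of single-copy genes.

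Other loading, trimming and translocon genes did not move together. Of 16 tested genes, 3 fell and 3 rose. Over all tested genes 10.1% were lower and 7.23% higher, and over the 1427 abundant ones 18.9% and 16.1%. With each library left out, 1 to 4 of the 16 fell and 2 to 3 rose. Tapbpl, which encodes the tapasin-related editor TAPBPR, had 138 ± 3.68 CPM in WT against 121 ± 3.35 CPM in KO (n = 3 each, SD) and fell (log2 fold change -0.19; edgeR adjusted p = 0.000251), and the translocon genes Sec61g and Sec61a1, picked with their values known, changed by -0.13 and -0.071. Calr, the chaperone calreticulin of the loading complex, rose by 0.078, and the cytosolic peptidase genes Blmh and Thop1 rose by 0.13 and 0.16. The calls of Tapbpl, Calr and Blmh held with each library left out. Thop1 lost its call without WT replicate 2 (edgeR adjusted p = 0.066) or KO replicate 3 (0.0585), Sec61g without any WT library or without KO replicate 3 (0.0642 to 0.103), and Sec61a1 without any WT library or without KO replicate 1 (0.106 to 0.171). Canx (calnexin), Pdia3 (ERp57) and Erap1, the aminopeptidase that trims peptides in the endoplasmic reticulum, did not pass, at 0.018, -0.030 and -0.031.

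Regulators upstream of the pathway were lower in 11 of 24 tested genes and higher in 0, with a median of -0.13, beside 10.1% lower and 7.23% higher over all tested genes and 18.9% and 16.1% over the 1427 abundant ones. Ifngr1, the ligand-binding chain of the interferon-γ receptor, changed by -0.60 (edgeR adjusted p = 8.97e-15). Irf1, a transcription factor induced by interferon, went from 473 ± 12.8 to 360.2 ± 4.05 CPM (n = 3 each, SD; -0.39; edgeR adjusted p = 5.74e-11). Nfkb1, a subunit gene of NF-κB, changed by -0.19. Nlrc5, for comparison, stood at -0.38. The genes of the RFX and NF-Y factors, with which NLRC5 acts at class I promoters, were 6 of the 13 that did not pass.

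**Figure D5:**
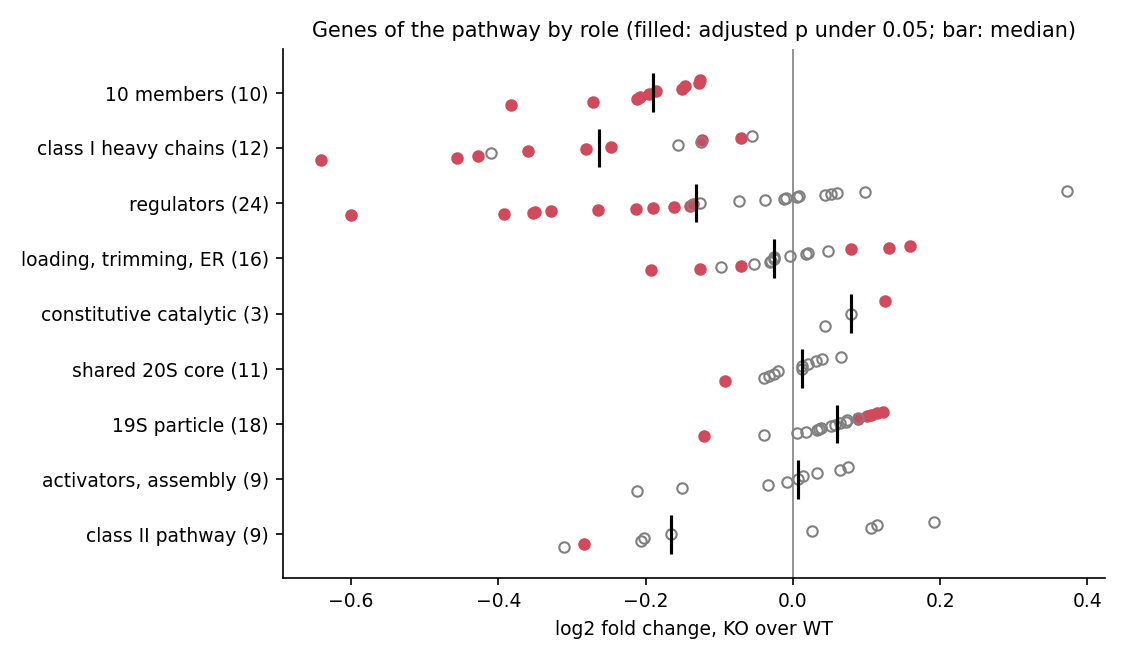
Log2 fold change of KO over WT for each tested gene by role (number of genes in brackets), filled where the edgeR adjusted p was under 0.05 and open otherwise, with the median of each list as a bar. The 10 genes (median -0.19), class I heavy chains (-0.26) and regulators (-0.13) lie mostly left of 0, and the 19S particle (0.060) and the 3 constitutive catalytic subunits (0.079) to the right.

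Psmb9, Tap1, Psmb8 and Tap2 stand next to each other on chromosome 17, within the class II region of the major histocompatibility complex. In the gene order of GRCm38.p6, the 6 tested genes nearest to this cluster all belong to the class II pathway, and 0 of 6 were called by edgeR (smallest adjusted p = 0.285), with log2 fold changes from -0.31 to 0.11. These genes were low, at 0.994 to 25.0 CPM in WT, and their precision differed. The 95% interval of H2-DMa, the most abundant of them, ran from -0.024 to 0.235 and excluded falls of the size seen in the 4 genes of the cluster, while those of the other 5, which reached from -0.841 to 0.782, each included such falls. Of the 9 tested class II pathway genes, 1 fell, the cysteine protease gene Ctss at -0.28 (edgeR adjusted p = 0.000348), while Cd74, the invariant chain, stood at 0.19 (adjusted p = 0.186; 0.0469 without KO replicate 2). Around all 10 genes, taking the 3 nearest tested genes on each side, 7 of 37 neighbours were lower and 2 higher, with a median of -0.051, where 10.1% of all tested genes were lower and 7.23% higher. The lower ones were Irf9 (-0.33), 2 genes away from Psme2 and itself induced by interferon, Dcaf11, Pck2, Sord, Slc28a2, Herpud1 and 9330175E14Rik, and the higher ones Ipo4 and Wdr46. By edgeR adjusted p, Pck2 no longer passed without WT replicate 3 (0.0963) or KO replicate 1 (0.056) or 2 (0.0781), Sord without WT replicate 1 (0.0959) or 2 (0.0859) or KO replicate 3 (0.0855), Herpud1 without WT replicate 1 (0.0807) or KO replicate 1 (0.109), and Wdr46 without WT replicate 1 (0.118) or 3 (0.111) or KO replicate 1 (0.0901).

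Immediate early and stress genes, which can respond to handling of cells, differed in the same libraries. The labels say nothing of handling, and the source of these differences was not tested. Of 14 tested immediate early and stress genes, 8 were lower and 2 higher in KO, with a median of -0.36 and a summed level of 4806 to 4862 CPM in WT and 4654 to 4776 in KO. Over all tested genes 10.1% were lower and 7.23% higher, and over the 1427 abundant ones 18.9% and 16.1%. Of 8 T cell identity genes, 4 were lower, Cd3g, Cd3d, Cd3e and Cd2, with a median over the list of -0.065. With each library left out, 2 to 6 of these 8 were lower, and under other scalings 2 to 3. The part of either in the lower levels of the 10 genes was not tested.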

How the data were processed

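Counts per gene were deposited by the authors as whole numbers, and the deposited FPKM equal these counts over the column total and 1 length per gene. The submitters' processing notes name fastp, HISAT2, HTSeq and GRCm39; the sources used here give no versions, annotation or strand setting. The test was that of edgeR 4.0.16 under R 4.3.3 (TMM scaling, filterByExpr, glmQLFit and glmQLFTest on the label, with Benjamini-Hochberg adjustment over 12810 genes and a threshold of 0.05); 0.0366% of counts were filtered out. Each SE is the size of the log2 fold change divided by the root of its F statistic, and CPM use the TMM-scaled library size. The script was tested on simulated data. Ratios were compared by exact permutation over libraries. Alternatives were DESeq2 1.42.0, limma 3.58.1 (voom, and limma-trend on log2(FPKM + 0.1) and log2(FPKM + 1), at a mean FPKM of at least 1), 3 other scalings, 2 other filters, a robust fit, stricter thresholds, the replicate number as a block and each library left out. The sum with Psme2b was chosen after seeing the data.

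The members and lists were chosen with earlier results of these data known. Named genes were Usf3, the 10 members, 14 set partners and regulators, up to 4 called genes per list by smallest p (or, in lists with under 2 called genes, the 2 genes of lowest p) and called neighbours; 1 of them is not reported here. Between libraries of a label, the chi-square of counts per degree of freedom was 3.26 to 7.19, more than sampling noise gives, and each was counted as a replicate. Promoters came from RefSeq for GRCm38.p6, another build than the files'. That build served for sequence, for gene order and for sorting tested genes by motif.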

Additional observations from a re-analysis of the deposited data

How the results depend on the processing

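All 10 genes stayed lower in KO and called under each of 19 alternatives other than the 1.2-fold test, with log2 fold changes from -0.39 to -0.36 for Nlrc5, -0.30 to -0.25 for Tap1 and -0.15 to -0.11 for Psmb8, whose largest adjusted p was 0.0169. Against a fold of 1.2 (edgeR glmTreat) the number of genes called among the 10 went from 10 to 1, by the construction of that test, and over all genes from 2219 to 447; at an adjusted p under 0.01 it was 1383 over all genes and 10 of the 10. The replicate number as a block gave 1969 calls over all genes and 10 of the 10. Deviations of same-numbered libraries correlated at 0.048, -0.044 and -0.072, so no pairing by number was seen. This check cannot tell whether such libraries shared a litter or a day, which the labels do not state. Leaving out each library gave 1660 to 2256 calls over all genes and 10 of the 10 each time. The ratio of Psme2 to Psme1, which did not differ from WT beyond its spread, changed sign in 4 of 6 such runs (-0.026 to 0.014); the cause was not tested. The ratios of Psmb8, Psmb9 and Psmb10 to their partners ranged over -0.27 to -0.23, -0.29 to -0.24 and -0.25 to -0.19. With 3 libraries per label, the exact permutation test of a ratio cannot give a p under 0.1.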
